A study of Homo sapiens with 12 samples.

Results

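The comparison described here sets 3 arrays of HepG2 cells treated with an siRNA against both forms of β-catenin (si-both) beside 3 arrays of cells treated with an siRNA against the full-length form alone (si-WT). What si-both adds to si-WT, by the design, is loss of a truncated β-catenin. These 6 arrays were chosen by their titles from the 12 of the series. The other arrays hold 3 samples treated with an siRNA against the truncated form alone (si-mut) and 3 with a control siRNA (siCtrl). All 4 groups received an siRNA and were sampled at 120 h. HepG2 is an established line from a human liver tumour and keeps many hepatocyte genes active. In it 1 allele of its β-catenin gene lacks exon 3, per the design text, so every group, siCtrl included, carries the deletion. All 14884 genes with 1 gene symbol were tested.

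β-catenin links cadherins to the cytoskeleton at cell junctions and carries the Wnt signal to the nucleus, where it drives transcription together with factors of the TCF and LEF family. Without a Wnt signal, a complex built on axin and APC marks the protein for degradation through a stretch encoded by exon 3. A form without that stretch escapes degradation and signals on its own. In liver, β-catenin activity is known for setting the genes of the zone around the central vein and for holding back genes of the zone around the portal vein.

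Values are log2 intensities, and ± after a level is the SD and after a change the standard error of the fit, with n = 3 arrays per group throughout. The threshold for a call was an adjusted p of 0.05 in limma, with Benjamini-Hochberg adjustment over all 14884 genes. The labels do not say that the 3 samples of a group came from separate cultures, so p-values reflect only how much these samples vary, and that variation may be technical. The first si-both array stood apart from the other two on several Wnt targets and on growth genes, and lay nearer to si-WT there. Replicate arrays correlated across genes at 0.994 for si-both and 0.996 for si-WT, against 0.966 to 0.974 between the groups. The si-both arrays were the more variable, with a median SD of 0.121, against 0.0963 for si-WT. Median levels over all probe sets were 4.71 to 4.78, and changes from or to levels near these are compressed by the array floor. Fold changes are therefore given only where both groups averaged above 6, close to the median over genes. Log2 changes are given for the other genes and for many small changes, whatever the level. Values of the targeted gene are not analysed here, which leaves the labels unchecked against it. Each knockdown used its own siRNA, and effects of an siRNA beyond its target cannot be told apart from the loss of a β-catenin form. In cell populations, fewer cells expressing a gene and less RNA per cell cannot be told apart either.

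The liver genes GSTA2, GSTA1, FETUB and HABP2 rose most when the truncated form was lost on top of the full-length form, and the Wnt target genes NOTUM, AXIN2, NKD1 and LGR5 were among those that fell most. In all, 5383 genes (36.2%) were called. Of these, 2397 rose (16.1% of all genes) and 2986 fell (20.1%). Over all genes the log2 change had a median of -0.012, and the median size among called genes was 0.51. Changes of at least 2-fold numbered 384 upward (2.58% of all genes) and 394 downward (2.65%). Changes of at least 8-fold numbered 21 upward and 7 downward. The si-both and si-WT arrays did not overlap for 6588 genes (44.3%), and 5255 of the called genes were among them. Without the first si-both and si-mut arrays 5225 genes were called, 865 of them at least 2-fold.

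**Figure D1:**
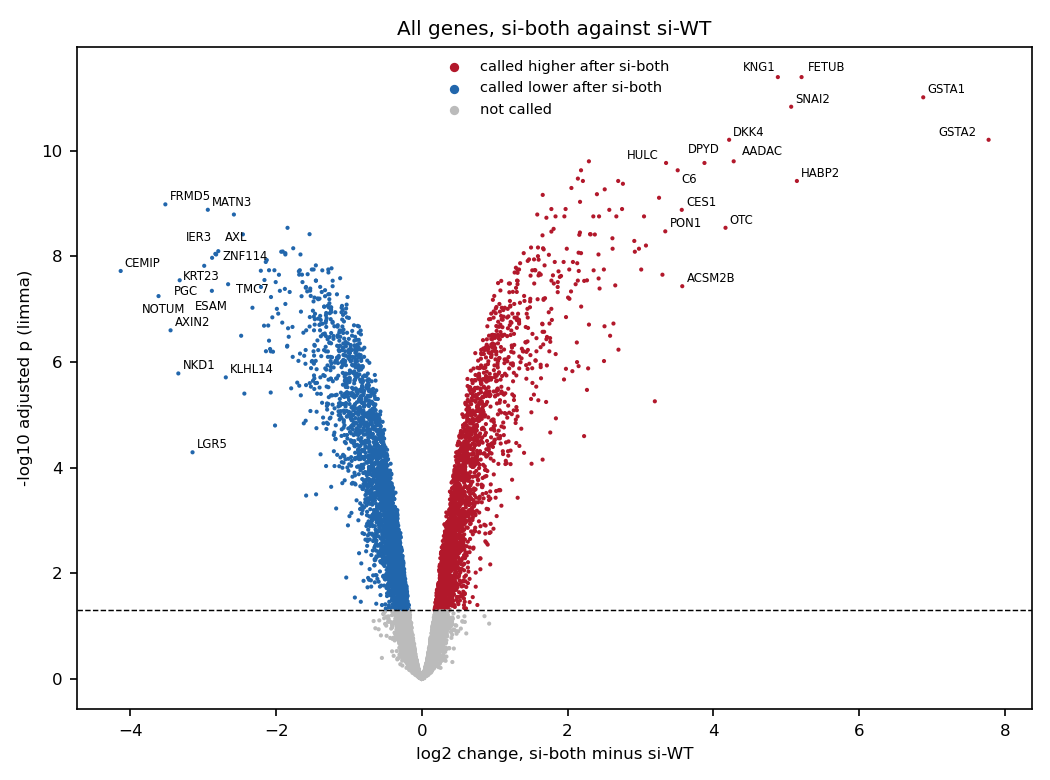
Each point is 1 of 14884 genes, with the log2 change of si-both minus si-WT across and the negative log10 of the limma adjusted p upward. The dashed line marks an adjusted p of 0.05, the 15 highest and 15 lowest named genes carry their symbols, and GSTA2 and GSTA1 lie farthest to the right at 7.78 and 6.88.

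Wnt target genes fell. Of 26 listed targets 21 were measured, of which 16 fell and 2 rose, with 13 of them at least 2-fold lower and a median log2 change of -1.40, against -0.012 over all genes. The feedback inhibitors NOTUM, AXIN2 and NKD1 fell most, while other inhibitors on the list fell by less, were not called or rose. NOTUM, a secreted enzyme that strips Wnt ligands of their lipid, stood at 7.42, 6.26 and 6.21 after si-both, against 10.19, 10.26 and 10.28 after si-WT. The first si-both array was the highest of its group, and all 3 lay below every si-WT array. NOTUM fell 12.2-fold (log2 change -3.61 ± 0.23, limma adjusted p = 5.66e-08). AXIN2, a scaffold of the complex that degrades β-catenin, had levels of 7.28, 6.04 and 6.44 after si-both, against 10.05, 10.10 and 9.97 after si-WT. It fell 10.9-fold (-3.45 ± 0.26, limma adjusted p = 2.52e-07), again with the first si-both array nearest to si-WT. NKD1, which binds Dishevelled and dampens the signal, had levels of 8.27, 6.96 and 7.35 after si-both, against 10.86, 10.88 and 10.88 after si-WT, and fell 10.1-fold (-3.34 ± 0.32, limma adjusted p = 1.65e-06).

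Receptors and the ligases that regulate them fell too. LGR5, a receptor for R-spondins that marks stem cells in several tissues, stood at 9.10, 7.79 and 7.79 after si-both, against 11.38, 11.40 and 11.34 after si-WT. The si-WT arrays lay close together, while the first si-both array lay clearly above the other two. LGR5 fell 8.85-fold (-3.15 ± 0.43, limma adjusted p = 5.12e-05). Without that si-both array the log2 change was -3.59 for LGR5, -3.71 for NKD1, -3.79 for AXIN2 and -4.01 for NOTUM. ZNRF3 and RNF43 encode ubiquitin ligases that remove Frizzled receptors from the membrane. ZNRF3 had levels of 8.01, 7.62 and 7.81 after si-both, against 9.70, 9.68 and 9.69 after si-WT, a 3.66-fold fall (-1.87 ± 0.13, limma adjusted p = 7.97e-08). RNF43 had levels of 7.56, 7.35 and 7.38 after si-both, against 8.99, 8.92 and 9.004 after si-WT, a 2.91-fold fall (-1.54 ± 0.07, limma adjusted p = 3.81e-09). For both ligases the replicates were tight and the groups lay well apart. APCDD1, a membrane inhibitor of Wnt signalling, fell by 1.14 on the log2 scale (limma adjusted p = 8.6e-06).

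Secreted Wnt antagonists of the Dickkopf family, which block the LRP5 and LRP6 co-receptors, moved in opposite directions. DKK1 had levels of 10.41, 9.34 and 8.93 after si-both, against 11.97, 11.92 and 12.10 after si-WT. The si-both arrays were spread over a wide range, and all lay below si-WT. DKK1 fell 5.41-fold (-2.44 ± 0.25, limma adjusted p = 3.96e-06). DKK4 had levels of 11.34, 11.34 and 11.09 after si-both, against 7.06, 7.01 and 7.04 after si-WT. All si-both arrays were far above si-WT, and DKK4 rose 18.6-fold (4.22 ± 0.12, limma adjusted p = 6.23e-11), the largest change of any Wnt target measured. The homeobox factor PROX1 was the other target that rose, by 0.18 on the log2 scale (limma adjusted p = 0.0446), and its call was lost under several alternatives.

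Among the nuclear and growth regulators on the list, MYC had levels of 7.08, 6.66 and 6.58 after si-both, against 9.35, 9.29 and 9.42 after si-WT. Every si-both array was below every si-WT array, and MYC, a driver of growth and ribosome production, fell 5.97-fold (-2.58 ± 0.11, limma adjusted p = 1.62e-09). CCND1, the cyclin that opens the cell cycle, had levels of 9.40, 9.17 and 9.18 after si-both, against 10.37, 10.35 and 10.30 after si-WT, and fell 2.14-fold (-1.10 ± 0.07, limma adjusted p = 8.67e-08). SOX9, a transcription factor of liver progenitors and bile duct cells, had levels of 9.39, 8.98 and 9.26 after si-both, against 10.61, 10.55 and 10.69 after si-WT, and fell 2.65-fold (-1.40 ± 0.09, limma adjusted p = 6.32e-08). None of these 3 genes had overlapping groups. The signalling protein BMP4 fell 3.21-fold, the T-box factor TBX3 1.57-fold, and ASCL2 and NKD2 fell by 0.40 and 0.30 on the log2 scale (limma adjusted p = 2.22e-08, 4.59e-05, 0.0323 and 0.0229). FGF19, WIF1 and LEF1 were not called, with log2 changes of -0.23 ± 0.10, -0.17 ± 0.07 and -0.02 ± 0.10. WIF1 and LEF1 lay at the array floor in both groups.

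**Figure D2:**
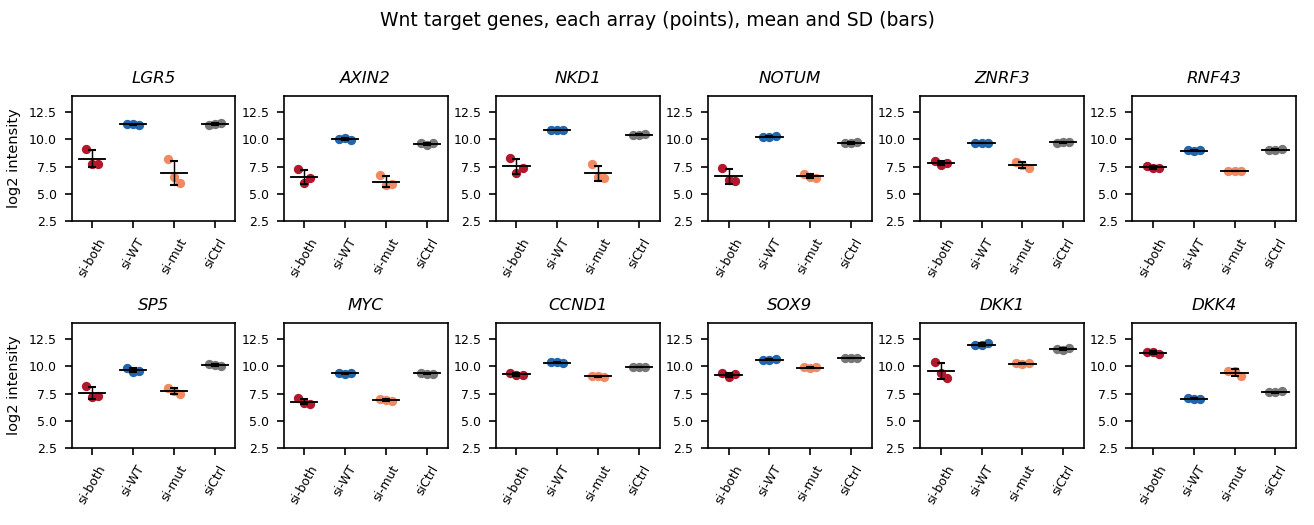
Log2 intensity of 12 Wnt targets in each array (points), with group means and SDs (bars), for si-both, si-WT, si-mut and siCtrl. In 11 panels the si-both points lie below the si-WT points, DKK4 is the exception, and the first si-both array is the highest of its group for LGR5, AXIN2, NKD1 and NOTUM.

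SP5, a transcription factor induced by Wnt signals in many cell types, is shown with its promoter because it was the only 1 of 8 Wnt targets with a promoter in the RefSeq table that held the TCF/LEF core CTTTGAT. Its levels were 8.20, 7.18 and 7.28 after si-both, against 9.83, 9.51 and 9.55 after si-WT. The groups did not overlap, and SP5 fell 4.21-fold (-2.07 ± 0.21, limma adjusted p = 3.78e-06). The window covers 250 bases before to 50 bases after the gene start (chr2:170715087-170715386, plus strand, RefSeq, GRCh38.p14). Capitals mark the core, whose first base lies 109 bases before the start.
SP5: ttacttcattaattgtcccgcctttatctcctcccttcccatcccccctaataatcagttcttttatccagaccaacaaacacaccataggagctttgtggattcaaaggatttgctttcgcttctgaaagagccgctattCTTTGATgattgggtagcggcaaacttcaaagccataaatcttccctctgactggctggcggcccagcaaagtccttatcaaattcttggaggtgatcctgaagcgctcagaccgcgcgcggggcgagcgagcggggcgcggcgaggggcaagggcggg
Searched on both strands, the core was present in 1.92% of the promoters of the 10749 tested genes that had one, and in 2.64% of all 27305 promoters in the table. It was present in 1.69% of the genes at least 2-fold lower and in 3.07% of those at least 2-fold higher. A match describes these letters only and is not a measured binding site.

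Ligands, receptors and transducers of the pathway moved little as a group. Of 66 listed genes 39 were measured, 8 rose and 9 fell, and the median log2 change was -0.01. These shares lie near the 16.1% and 20.1% of all genes. The Dickkopf receptor KREMEN1 fell 2.44-fold, and the Frizzled receptors FZD4 and FZD2 fell by 0.96 and 0.89 on the log2 scale (limma adjusted p = 6.32e-07, 3.17e-07 and 9.64e-05). BTRC, the ubiquitin ligase subunit that recognises phosphorylated β-catenin, rose 1.6-fold and the receptor FZD5 1.33-fold (limma adjusted p = 6.29e-06 and 0.000192).

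The genes that rose most were the glutathione transferases GSTA2 and GSTA1, which conjugate glutathione to electrophiles and are abundant in hepatocytes. GSTA2 had levels of 12.68, 12.67 and 12.79 after si-both, against 5.69, 4.42 and 4.69 after si-WT. The si-both arrays were high and tight, and the si-WT arrays were low, with the first the highest. The log2 change was 7.78 ± 0.23 (limma adjusted p = 6.23e-11). GSTA1 had levels of 12.94, 12.60 and 12.91 after si-both, against 6.28, 5.83 and 5.69 after si-WT, without overlap, and rose by 6.88 ± 0.17 on the log2 scale (limma adjusted p = 9.78e-12). Both genes lie on chromosome 6 and are near copies, so probes may share signal and the size for either single gene is uncertain. Their promoters are shown because the pair changed most and shares its upstream sequence, with 288 of 300 aligned bases identical (96%). The windows (GSTA2, chr6:52763426-52763725, minus strand; GSTA1, chr6:52803767-52804066, minus strand; RefSeq, GRCh38.p14) run from 250 bases before to 50 bases after each start. Capitals mark, from left to right, the TCF/LEF core CTTTGAT and the motif GTTAAT of the hepatocyte factor HNF1, read here on the other strand.
GSTA2: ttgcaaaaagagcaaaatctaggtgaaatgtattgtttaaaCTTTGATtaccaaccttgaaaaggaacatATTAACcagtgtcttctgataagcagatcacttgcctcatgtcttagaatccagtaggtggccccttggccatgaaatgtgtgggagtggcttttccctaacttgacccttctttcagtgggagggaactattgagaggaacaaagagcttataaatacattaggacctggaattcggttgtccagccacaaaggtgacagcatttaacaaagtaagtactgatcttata
GSTA1: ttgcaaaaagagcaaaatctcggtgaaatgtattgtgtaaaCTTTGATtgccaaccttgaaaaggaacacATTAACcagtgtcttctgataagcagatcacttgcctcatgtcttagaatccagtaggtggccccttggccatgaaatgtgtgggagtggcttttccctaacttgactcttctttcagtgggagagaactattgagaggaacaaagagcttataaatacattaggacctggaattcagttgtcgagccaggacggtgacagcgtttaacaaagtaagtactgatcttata
In both promoters the core begins 209 bases and the motif 180 bases before the start. The motif was present in 4.63% of the promoters of tested genes and in 6.89% of all promoters in the table. It was present in 10.2% of the genes at least 2-fold higher (30 of 293) and in 3.05% of those at least 2-fold lower (9 of 295).

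The rest of the glutathione list did not share this size. Of 32 measured genes of glutathione use and of the oxidative stress factor NRF2, 13 rose and 8 fell, and the median log2 change was 0.06. Only GSTA1 and GSTA2 were at least 2-fold higher. GSTT2, another transferase, rose by 0.72 ± 0.15 on the log2 scale, at low levels. TALDO1 and TKT, enzymes of the pentose phosphate pathway, fell by 0.85 and 0.82 on the log2 scale (limma adjusted p = 8.24e-06 and 9.57e-06).

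Genes of proteins that hepatocytes release into blood rose as groups. Of 17 measured genes of coagulation and fibrinolysis 14 rose and 2 fell, with 9 at least 2-fold higher and a median log2 change of 1.10. HABP2, a plasma serine protease, had levels of 10.17, 10.75 and 10.49 after si-both, against 5.29, 5.40 and 5.27 after si-WT. The groups were far apart, and the log2 change was 5.15 ± 0.19 (limma adjusted p = 3.75e-10). KNG1, the kininogen from which bradykinin is cut, had levels of 11.26, 11.25 and 11.19 after si-both, against 6.58, 6.16 and 6.30 after si-WT, and rose 29.6-fold (4.89 ± 0.10, limma adjusted p = 4.05e-12). With the mean of its probe sets in place of the brightest, the log2 change of KNG1 was 2.54, and its dimmer probe set changed by only 0.19. F11, coagulation factor XI, had levels of 10.004, 10.09 and 10.35 after si-both, against 7.57, 7.29 and 7.49 after si-WT, and rose 6.48-fold (2.70 ± 0.10, limma adjusted p = 3.75e-10). In each of these 3 genes every si-both array was above every si-WT array, which for HABP2 and KNG1 was a condition of being named. The members that fell were TFPI, an inhibitor of the tissue factor pathway, by 0.39, and PROC, protein C, by 0.27 on the log2 scale (limma adjusted p = 0.0025 and 0.0143). Both products restrain clotting.

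FGB, the fibrinogen β chain, had levels of 12.50, 12.46 and 12.41 after si-both, against 10.86, 10.55 and 10.90 after si-WT. The groups did not overlap, and FGB rose 3.22-fold (1.68 ± 0.09, limma adjusted p = 1.48e-08). Its promoter (chr4:154562730-154563029, plus strand, RefSeq, GRCh38.p14) is shown as the example of the HNF1 motif GTTAAT in the coagulation genes, 6 of 17 of which held it (35.3%). Capitals mark the motif, read on the other strand, which begins 51 bases before the start.
FGB: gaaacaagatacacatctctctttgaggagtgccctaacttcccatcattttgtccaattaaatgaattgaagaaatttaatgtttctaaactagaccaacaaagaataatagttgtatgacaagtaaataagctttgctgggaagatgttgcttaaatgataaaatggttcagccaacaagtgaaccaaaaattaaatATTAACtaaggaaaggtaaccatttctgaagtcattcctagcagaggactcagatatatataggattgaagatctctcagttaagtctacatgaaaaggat
Of the 22 apolipoprotein and carrier genes with a promoter, 5 held the motif (22.7%), and of 11 complement genes 1 did (9.09%). These counts are small, and the share among all called higher genes was 4.9%, close to the 4.63% of tested genes.

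Of 17 measured complement genes 11 rose and 0 fell (6 at least 2-fold higher, median log2 change 0.27). C6, a part of the membrane attack complex, had levels of 8.62, 8.61 and 8.88 after si-both, against 5.16, 5.01 and 5.42 after si-WT. No array overlapped, and the log2 change was 3.51 ± 0.12 (limma adjusted p = 2.35e-10). VTN (vitronectin) and MASP1, a protease of the lectin pathway, rose 3.93-fold and 3.64-fold (limma adjusted p = 1.27e-09 and 4.77e-08). The 6 complement genes that were not called had log2 changes from -0.17 to 0.15.

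Of 32 measured apolipoproteins and plasma carriers 25 rose and 2 fell, with a median log2 change of 0.80 and 14 at least 2-fold higher. FETUB, the protease inhibitor fetuin B, had levels of 11.91, 11.95 and 11.85 after si-both, against 6.92, 6.56 and 6.59 after si-WT. It rose 37.1-fold (5.21 ± 0.11, limma adjusted p = 4.05e-12), with tight replicates in both groups. PON1, a lipoprotein-bound esterase, had levels of 8.16, 8.24 and 8.35 after si-both, against 4.84, 4.65 and 5.24 after si-WT, and rose by 3.34 ± 0.15 on the log2 scale (limma adjusted p = 3.37e-09). HPX, the haem carrier haemopexin, had levels of 9.29, 9.24 and 9.12 after si-both, against 6.77, 6.47 and 6.69 after si-WT, and rose 5.95-fold (2.57 ± 0.11, limma adjusted p = 1.32e-09). The exceptions were IGFBP1 and APOA2. IGFBP1, a secreted binding protein of insulin-like growth factors, had levels of 7.40, 7.78 and 8.69 after si-both, against 9.66, 10.002 and 10.26 after si-WT. Its si-both arrays were spread but all below si-WT, and it fell 4.04-fold (-2.01 ± 0.24, limma adjusted p = 1.59e-05). APOA2 fell by 0.26 on the log2 scale, with a level of 13.02 ± 0.08 after si-both, against 13.27 ± 0.06 after si-WT (limma adjusted p = 0.00828).

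Acute phase genes, whose products the liver releases during inflammation, were higher in 9 of 14 cases and lower in 1 (median log2 change 0.80). PGLYRP2, an enzyme that cleaves bacterial peptidoglycan, had levels of 8.77, 8.51 and 8.28 after si-both, against 5.28, 5.50 and 5.76 after si-WT. Its log2 change was 3.01 ± 0.17 (limma adjusted p = 1.78e-08), without overlap between groups. The chemokine gene CXCL8 had levels of 5.94, 7.10 and 6.75 after si-both, against 3.77, 3.91 and 4.004 after si-WT, and rose by 2.70 ± 0.23 on the log2 scale (limma adjusted p = 5.84e-07). The si-WT levels of CXCL8 lay at the array floor and its si-both arrays were spread. SOCS3, a feedback inhibitor of cytokine signalling, fell by 0.47 on the log2 scale with overlapping arrays (limma adjusted p = 0.00974). LEAP2, a liver-secreted peptide that opposes ghrelin, had levels of 9.33, 9.36 and 9.45 after si-both, against 6.86, 6.22 and 6.30 after si-WT, and rose 7.59-fold (2.92 ± 0.15, limma adjusted p = 8.18e-09). Its promoter (chr5:132873418-132873717, plus strand, RefSeq, GRCh38.p14) is shown because it holds both hepatocyte factor motifs searched. Capitals mark the HNF4 site CAAAGTCCA, 190 bases before the start, and the HNF1 motif on the other strand, 117 bases before it.
LEAP2: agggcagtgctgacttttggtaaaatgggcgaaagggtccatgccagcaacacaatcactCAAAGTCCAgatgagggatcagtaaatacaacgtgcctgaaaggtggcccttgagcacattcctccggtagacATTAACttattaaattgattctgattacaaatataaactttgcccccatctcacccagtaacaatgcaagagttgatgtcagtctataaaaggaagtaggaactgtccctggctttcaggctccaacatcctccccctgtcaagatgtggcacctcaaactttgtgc
The HNF4 site was present in 0.288% of the promoters of tested genes and 0.359% of all promoters in the table. Of the genes at least 2-fold higher 8 of 293 held it (2.73%), and of those at least 2-fold lower 0 of 295 did. The HNF4 site and the TCF/LEF core are similar in letters, and 0 matches overlapped in the promoters shown.

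Transcription factors that maintain hepatocytes rose in 7 of 13 measured cases and fell in 2 (median log2 change 0.21). CREB3L3, a factor of the fasting response, had levels of 11.23, 11.40 and 11.32 after si-both, against 9.07, 9.11 and 9.22 after si-WT. ONECUT1 (HNF6) had levels of 10.85, 10.97 and 11.04 after si-both, against 8.95, 8.80 and 8.96 after si-WT. PPARA, the receptor that switches on fatty acid oxidation, had levels of 9.02, 8.89 and 9.23 after si-both, against 7.16, 6.98 and 7.02 after si-WT. All 3 were higher in every si-both array than in any si-WT array. They rose 4.55-fold, 4.15-fold and 3.97-fold (2.19 ± 0.07, 2.05 ± 0.08 and 1.99 ± 0.10, limma adjusted p = 2.35e-10, 5.09e-10 and 7.18e-09). TBX3, also a Wnt target, and GATA6 fell, GATA6 by 0.39 on the log2 scale (limma adjusted p = 0.000803). Of 7 measured nuclear receptors, PPARA and RORA rose, RORA by 0.61 ± 0.09 (limma adjusted p = 7.64e-05), and the other 5 were not called.

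Genes of the zone around the portal vein, whose pattern is known from rodent and human liver, rose in 8 of 9 measured cases and fell in 0, with 7 at least 2-fold higher and a median log2 change of 1.65. OTC, a mitochondrial enzyme of the urea cycle, had levels of 8.08, 7.82 and 8.54 after si-both, against 3.59, 4.09 and 4.26 after si-WT. HAL, which degrades histidine, had levels of 7.999, 8.16 and 8.43 after si-both, against 4.56, 5.08 and 5.05 after si-WT. AGXT, which removes glyoxylate, had levels of 9.78, 9.49 and 9.66 after si-both, against 7.60, 7.03 and 7.01 after si-WT. In these 3 genes the groups stood far apart, and OTC and HAL were close to the array floor after si-WT. OTC rose by 4.17 ± 0.19 and HAL by 3.30 ± 0.19 on the log2 scale, and AGXT rose 5.38-fold (limma adjusted p = 2.88e-09, 2.23e-08 and 2.62e-08).

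Genes of the zone around the central vein did not move as one. Of 9 measured 5 fell and 3 rose, with a median log2 change of -0.54. The 3 largest falls were NOTUM, AXIN2 and LGR5, which are counted among the Wnt targets too. The members that rose include OAT, an enzyme of ornithine breakdown, with levels of 9.36, 9.30 and 9.39 after si-both, against 8.27, 8.38 and 8.32 after si-WT, a 2.04-fold change (limma adjusted p = 6.41e-07). RGN, a calcium-binding protein, rose 1.91-fold (limma adjusted p = 4.42e-06). The third was GLUL, glutamine synthetase, a known β-catenin target of the central zone in mouse liver, which was named after its values were seen. GLUL had levels of 8.90, 8.74 and 8.81 after si-both, against 8.41, 8.32 and 8.36 after si-WT, and rose by 0.46 ± 0.08 on the log2 scale (limma adjusted p = 0.0004).

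Enzymes that break down amino acids and pyrimidines rose in 15 of 23 cases and fell in 1 (median log2 change 0.41). DPYD, the first enzyme of pyrimidine breakdown, had levels of 8.60, 8.47 and 8.95 after si-both, against 4.85, 4.61 and 4.92 after si-WT, a log2 change of 3.88 ± 0.13 (limma adjusted p = 1.71e-10). BHMT, which remethylates homocysteine, had levels of 9.52, 8.999 and 9.34 after si-both, against 6.34, 6.01 and 6.28 after si-WT, and rose 8.44-fold (3.08 ± 0.15, limma adjusted p = 6.25e-09). GNMT, which consumes S-adenosylmethionine, had levels of 8.24, 7.95 and 8.04 after si-both, against 5.52, 5.72 and 5.69 after si-WT, a log2 change of 2.43 ± 0.11 (limma adjusted p = 1.76e-09). None of the 3 had overlapping groups. MCCC2, a subunit of a leucine breakdown enzyme, fell by 0.33 on the log2 scale (limma adjusted p = 0.00242).

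Genes of lipid metabolism rose more often than they fell, by smaller amounts. Of 17 measured genes of cholesterol synthesis 15 rose and 0 fell, with a median log2 change of 0.65 and only MVK at least 2-fold higher. MVK, mevalonate kinase, had levels of 9.66, 9.52 and 9.43 after si-both, against 8.45, 8.38 and 8.21 after si-WT, and rose 2.28-fold (1.19 ± 0.08, limma adjusted p = 1.37e-07). EBP and IDI1, also enzymes of the pathway, rose 1.83-fold and 1.72-fold (limma adjusted p = 0.00011 and 6.38e-06). Of 18 genes of fatty acid oxidation or under PPARA control 13 rose and 0 fell (median 0.78). CPT1A, which admits fatty acids to mitochondria, had levels of 10.17, 10.25 and 10.34 after si-both, against 8.58, 8.53 and 8.68 after si-WT, and rose 3.15-fold (1.66 ± 0.08, limma adjusted p = 4.01e-09). ACSL1, which activates long-chain fatty acids, rose 2.34-fold (limma adjusted p = 6.41e-07). The synthesis of fatty acids and triglycerides was mixed, with 10 of 24 genes higher and 3 lower (median 0.13). CIDEB, a lipid droplet and lipoprotein factor, rose 3.15-fold, CIDEC by 1.56 on the log2 scale and the glucose-sensing factor MLXIPL 2.47-fold (limma adjusted p = 1.93e-07, 9.46e-07 and 8.17e-06). SREBF1, the factor that drives lipogenesis, fell by 0.75 and LPIN2 by 0.56 on the log2 scale (limma adjusted p = 0.00302 and 0.00219).

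Of 6 measured bile acid genes 4 rose and 1 fell. BAAT, which conjugates bile acids to amino acids, had levels of 9.24, 9.79 and 9.39 after si-both, against 6.80, 6.34 and 6.52 after si-WT, and rose 7.55-fold (2.92 ± 0.14, limma adjusted p = 5.11e-09). SLC51A, part of a bile acid exporter, rose by 1.43 on the log2 scale, and KLB, the co-receptor for FGF19, rose 2.32-fold (limma adjusted p = 4.26e-07 and 8.94e-08). FGFR4, the receptor that works with KLB, fell 1.81-fold (limma adjusted p = 1.34e-06). Metallothioneins, small proteins that bind zinc and copper, rose in 7 of 11 cases and fell in 1 (median 1.03). MT1F had levels of 12.31, 12.23 and 12.02 after si-both, against 10.22, 10.19 and 10.28 after si-WT, and rose 3.88-fold (limma adjusted p = 1.76e-09). MT1B had levels of 6.92, 7.53 and 5.65 after si-both, against 3.59, 3.47 and 3.44 after si-WT, with si-both arrays spread widely and si-WT at the floor, a log2 change of 3.20 ± 0.34 (limma adjusted p = 5.55e-06). The genes of this family are near copies, so the size for a single one is uncertain. MT1M rose by 2.23 ± 0.28 and MT1L fell by 0.41, at the array floor, on the log2 scale.

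The remaining genes described here are also among the 15 largest increases. AADAC, a liver esterase of the endoplasmic reticulum, had levels of 7.99, 8.02 and 8.58 after si-both, against 4.03, 3.82 and 3.89 after si-WT, a log2 change of 4.28 ± 0.14 (limma adjusted p = 1.59e-10). CES1, the main carboxylesterase of liver, had levels of 10.52, 10.32 and 10.78 after si-both, against 7.27, 6.76 and 6.88 after si-WT, and rose 11.9-fold (3.57 ± 0.15, limma adjusted p = 1.32e-09). With the mean of its probe sets the log2 change of CES1 was 2.89. ACSM2B, a mitochondrial enzyme that activates medium-chain acids, had levels of 9.38, 9.02 and 9.65 after si-both, against 5.80, 5.90 and 5.62 after si-WT, a log2 change of 3.57 ± 0.22 (limma adjusted p = 3.68e-08). In all 3 the si-both arrays lay above the si-WT arrays by several log2 units. ACSM2B has a near copy, so its size is uncertain. HULC, a long non-coding RNA of liver tumours, had levels of 10.02, 10.24 and 10.16 after si-both, against 7.07, 6.66 and 6.63 after si-WT, and rose 10.2-fold (limma adjusted p = 1.71e-10). SNAI2, a repressor of epithelial genes, had levels of 9.90, 10.13 and 10.39 after si-both, against 5.14, 4.87 and 5.19 after si-WT, a log2 change of 5.07 ± 0.13 (limma adjusted p = 1.47e-11). SNAI2 was the only member of the mesenchymal and matrix list that rose.

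Genes of cell division fell almost without exception. Of 32 measured mitosis genes 30 fell and 0 rose, 13 of them at least 2-fold, with a median log2 change of -0.93. PRC1, which bundles microtubules of the dividing cell, had levels of 7.96, 7.60 and 7.54 after si-both, against 9.39, 9.44 and 9.34 after si-WT. HMMR, a spindle protein, had levels of 7.02, 7.06 and 6.83 after si-both, against 8.41, 8.46 and 8.56 after si-WT. BUB1, a kinase of the spindle checkpoint, had levels of 8.68, 8.37 and 8.28 after si-both, against 9.87, 9.91 and 9.96 after si-WT. Every si-both array was below every si-WT array for these genes, and the falls were 3.22-fold, 2.85-fold and 2.78-fold (-1.69 ± 0.10, -1.51 ± 0.08 and -1.47 ± 0.10, limma adjusted p = 1.93e-08, 1.78e-08 and 6.03e-08). The members that were not called were BIRC5 and CDC25C, named after their values were seen, with log2 changes of -0.25 ± 0.09 and -0.20 ± 0.11.

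Of 25 measured DNA replication genes 23 fell and 0 rose (8 at least 2-fold, median log2 change -0.78). MCM3, a subunit of the replicative helicase, had levels of 9.49, 8.78 and 8.84 after si-both, against 10.90, 11.02 and 10.93 after si-WT. PCNA, the sliding clamp, had levels of 10.24, 9.78 and 9.81 after si-both, against 11.20, 11.31 and 11.18 after si-WT. They fell 3.77-fold and 2.44-fold (-1.92 ± 0.14 and -1.29 ± 0.11, limma adjusted p = 1.8e-07 and 8e-07), and in both the first si-both array was the highest of its group. MCM7, another helicase subunit, had levels of 9.08, 8.47 and 8.71 after si-both, against 10.07, 9.99 and 9.95 after si-WT, and fell 2.38-fold (-1.25 ± 0.12, limma adjusted p = 2.07e-06). Its promoter (chr7:100101348-100101647, minus strand, RefSeq, GRCh38.p14) is shown because it holds both motifs searched for the growth genes. Capitals mark the E2F site TTTCCCGC, read on the other strand 187 bases before the start, and the E-box CACGTG, which factors such as MYC bind, 25 bases before it.
MCM7: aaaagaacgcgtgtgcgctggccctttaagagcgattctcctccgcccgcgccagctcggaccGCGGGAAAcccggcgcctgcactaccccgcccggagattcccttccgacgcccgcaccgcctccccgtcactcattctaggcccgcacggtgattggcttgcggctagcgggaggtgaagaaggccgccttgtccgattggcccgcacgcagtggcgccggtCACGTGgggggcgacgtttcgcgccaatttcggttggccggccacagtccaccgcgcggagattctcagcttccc
The E2F site was present in 8 of 21 promoters of replication genes, called or not (38.1%). It was present in 2.2% of the promoters of tested genes and 1.66% of all promoters in the table. Of all genes at least 2-fold lower 4.07% held it, and of those at least 2-fold higher 2.73%.

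Genes of ribosome production fell as well. Of 28 measured genes of ribosome biogenesis 26 fell and 0 rose, 9 of them at least 2-fold, with a median log2 change of -0.91. BOP1 and NOLC1, which act in the processing of ribosomal RNA, had levels that averaged 7.37 ± 0.23 and 8.56 ± 0.36 after si-both, against 8.85 ± 0.04 and 10.05 ± 0.05 after si-WT. The nucleolar helicase DDX21 had levels of 8.66, 8.28 and 8.52 after si-both, against 9.89, 9.91 and 9.83 after si-WT. The groups did not overlap for any of the 3, which fell 2.8-fold, 2.79-fold and 2.63-fold (limma adjusted p = 7.14e-08, 1.08e-06 and 1.34e-07). With the mean of its probe sets the log2 change of BOP1 was -1.01, and its dimmer probe set changed by -0.53. The E-box was present in 8 of 22 promoters of this list, called or not (36.4%). It was present in 9.02% of the promoters of tested genes and 7.43% of all in the table. Of all genes at least 2-fold lower 12.2% held it, and of those at least 2-fold higher 6.83%. Ribosomal protein genes fell in 30 of 45 cases and rose in 0, by less, with a median of -0.34 and 0 at least 2-fold lower. RPL29 fell by 0.82, RPL12 by 0.79 and RPL10A by 0.69 on the log2 scale (limma adjusted p = 3.25e-05, 5.37e-07 and 1.46e-05). Ribosomal protein genes have many processed copies, so single values are uncertain.

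Genes induced by the growth factor kinase ERK, with the feedback inhibitors it switches on, fell in 15 of 25 measured cases and rose in 1 (9 at least 2-fold lower, median log2 change -0.72). IER3, an immediate early gene, had levels of 8.58, 7.97 and 7.94 after si-both, against 10.86, 10.94 and 11.18 after si-WT. SPRY4, a Sprouty inhibitor of receptor kinase signalling, had levels of 7.57, 6.72 and 7.05 after si-both, against 9.05, 9.11 and 9.60 after si-WT. All si-both arrays were below si-WT in both genes. They fell 7.13-fold and 4.4-fold (-2.83 ± 0.15 and -2.14 ± 0.18, limma adjusted p = 8.98e-09 and 6.25e-07). With the mean of its probe sets the log2 change of IER3 was -2.01. MYC is counted on this list as well. DUSP1, a phosphatase of the stress kinases, was the member that rose, by 0.51 ± 0.14 with overlapping arrays (limma adjusted p = 0.0115).

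Targets of the co-activator YAP and its partner TEAD fell in 9 of 19 cases and rose in 2, with a median of only -0.12. AXL, a receptor tyrosine kinase, had levels of 5.79, 5.93 and 5.74 after si-both, against 8.30, 8.63 and 8.91 after si-WT, a log2 change of -2.79 ± 0.14 (limma adjusted p = 7.99e-09). CRIM1 and the matrix protein THBS1 fell 3.4-fold and 2.82-fold (limma adjusted p = 7.04e-09 and 1.07e-07). AXL was near the floor after si-both, and all 3 had separate groups. WWC1, an activator of the Hippo pathway, rose 1.39-fold and ARHGEF17 by 0.27 on the log2 scale (limma adjusted p = 0.000663 and 0.0441). ARHGEF17 lost its call under several alternatives, including the one with the replicate number as a block (adjusted p = 0.0552).

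Genes of the p53 response were higher in 5 of 17 cases and lower in 4 (median 0.06). Over all genes 16.1% rose and 20.1% fell, so the share of p53 genes that fell was near that of all genes. TP53INP1 and SESN2, stress-response genes, rose 2.13-fold and 2.06-fold, while the secreted stress factor GDF15 fell 2.52-fold and PMAIP1, a promoter of cell death, fell by 1.31 on the log2 scale (limma adjusted p = 3.62e-06, 9.79e-06, 2.89e-07 and 1.48e-07). Glycolysis and hypoxia genes fell in 10 of 18 cases and rose in 2 (median -0.35). HK2, the hexokinase of growing cells, had levels of 7.30, 6.81 and 7.44 after si-both, against 9.13, 9.08 and 9.49 after si-WT, and fell 4.14-fold (limma adjusted p = 1.43e-07). EPO, the erythropoietin gene, rose 2.78-fold and NDRG1 1.78-fold (limma adjusted p = 1.08e-06 and 0.000234). Genes of the amino acid response and of unfolded protein stress fell in 14 of 32 cases and rose in 6, the latter near the share over all genes. STC2 changed by -1.27 and the lipoprotein receptor VLDLR by 0.99 on the log2 scale. Of 28 interferon-induced genes 11 rose and 6 fell, the latter near the share over all genes. XAF1 and USP18 rose 3.1-fold and 2.06-fold, and the near copies IFITM2 and IFITM1 fell 4.2-fold and 3.55-fold (limma adjusted p = 5.25e-07, 4.44e-07, 5.89e-08 and 3.33e-07). Of 15 respiratory chain genes 2 rose and 3 fell, close to the shares over all genes.

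Junction genes differed by type. Of 14 adherens junction and desmosome genes 8 fell and 1 rose (median -0.37). The member that rose was JUP, plakoglobin, the closest relative of β-catenin. JUP had levels of 10.15, 10.09 and 9.98 after si-both, against 8.78, 8.87 and 8.65 after si-WT, and rose 2.48-fold (1.31 ± 0.08, limma adjusted p = 2.88e-08). PKP2, a desmosomal plaque protein, fell 2.06-fold and the actin linker VCL 1.65-fold (limma adjusted p = 1.66e-06 and 3.58e-06). Of 25 tight junction genes 12 rose and 7 fell (median 0.39). CLDN1, a claudin, had levels of 12.10, 12.15 and 12.06 after si-both, against 10.86, 10.89 and 10.90 after si-WT, and rose 2.33-fold (limma adjusted p = 1.74e-07). TJP3, a scaffold of tight junctions, rose 2.38-fold (limma adjusted p = 2.32e-06). ESAM, a junctional adhesion molecule, had levels of 5.94, 5.76 and 5.72 after si-both, against 8.43, 8.43 and 9.21 after si-WT, a log2 change of -2.88 ± 0.18 (limma adjusted p = 4.5e-08).

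The remaining large decreases came from genes with diverse roles. CEMIP, which degrades hyaluronan, had levels of 5.67, 4.93 and 4.88 after si-both, against 8.91, 9.38 and 9.58 after si-WT, and its log2 change of -4.13 ± 0.24 was the lowest among the named genes (limma adjusted p = 1.89e-08). FRMD5, a FERM-domain protein, had levels of 4.86, 4.69 and 4.53 after si-both, against 7.997, 8.27 and 8.38 after si-WT, a log2 change of -3.52 ± 0.14 (limma adjusted p = 1.04e-09). CEMIP and FRMD5 were at the array floor after si-both. PGC, a pepsinogen, had levels of 7.33, 6.26 and 6.92 after si-both, against 10.22, 10.13 and 10.13 after si-WT, and fell 10-fold (limma adjusted p = 2.84e-08). The keratin KRT23 fell 7.92-fold, the matrix protein MATN3 7.66-fold and the zinc finger gene ZNF114 7.35-fold (limma adjusted p = 1.51e-08, 1.31e-09 and 1.07e-08). TMC7, a transmembrane protein, fell 6.31-fold, and KLHL14 fell by 2.69 on the log2 scale (limma adjusted p = 3.37e-08 and 1.96e-06). CHST15, an enzyme of chondroitin sulfate synthesis, fell 4.47-fold (limma adjusted p = 2.81e-08). Of 17 mesenchymal and matrix genes 6 fell, CEMIP, CHST15 and THBS1 among them.

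Genes of liver progenitors and fetal liver fell in 8 of 20 cases and rose in 5. SPP1 (osteopontin) had levels of 11.38, 10.98 and 10.74 after si-both, against 13.01, 13.06 and 13.01 after si-WT, and fell 3.97-fold (-1.99 ± 0.14, limma adjusted p = 9.87e-08). SOX4 fell 1.93-fold, while the imprinted genes PEG10 and DLK1 rose 1.96-fold and 1.48-fold (limma adjusted p = 3.24e-06, 6.28e-07 and 0.00226). Of 20 TGF-β and BMP genes 4 rose and 5 fell, close to the shares over all genes (16.1% higher and 20.1% lower). Beside BMP4, the pseudoreceptor BAMBI fell 1.65-fold and SMAD9 1.64-fold, while SMAD4, the shared mediator, rose 1.61-fold (limma adjusted p = 0.00114, 4.8e-05 and 2.2e-06). Lysosomal genes fell in 10 of 25 cases and rose in 6. The sulfatase ARSB and the protease CTSC fell 2.4-fold and 2.06-fold, and the lysosome regulator TFE3 rose 1.94-fold (limma adjusted p = 3.36e-07, 5.07e-07 and 3.67e-07).

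**Figure D3:**
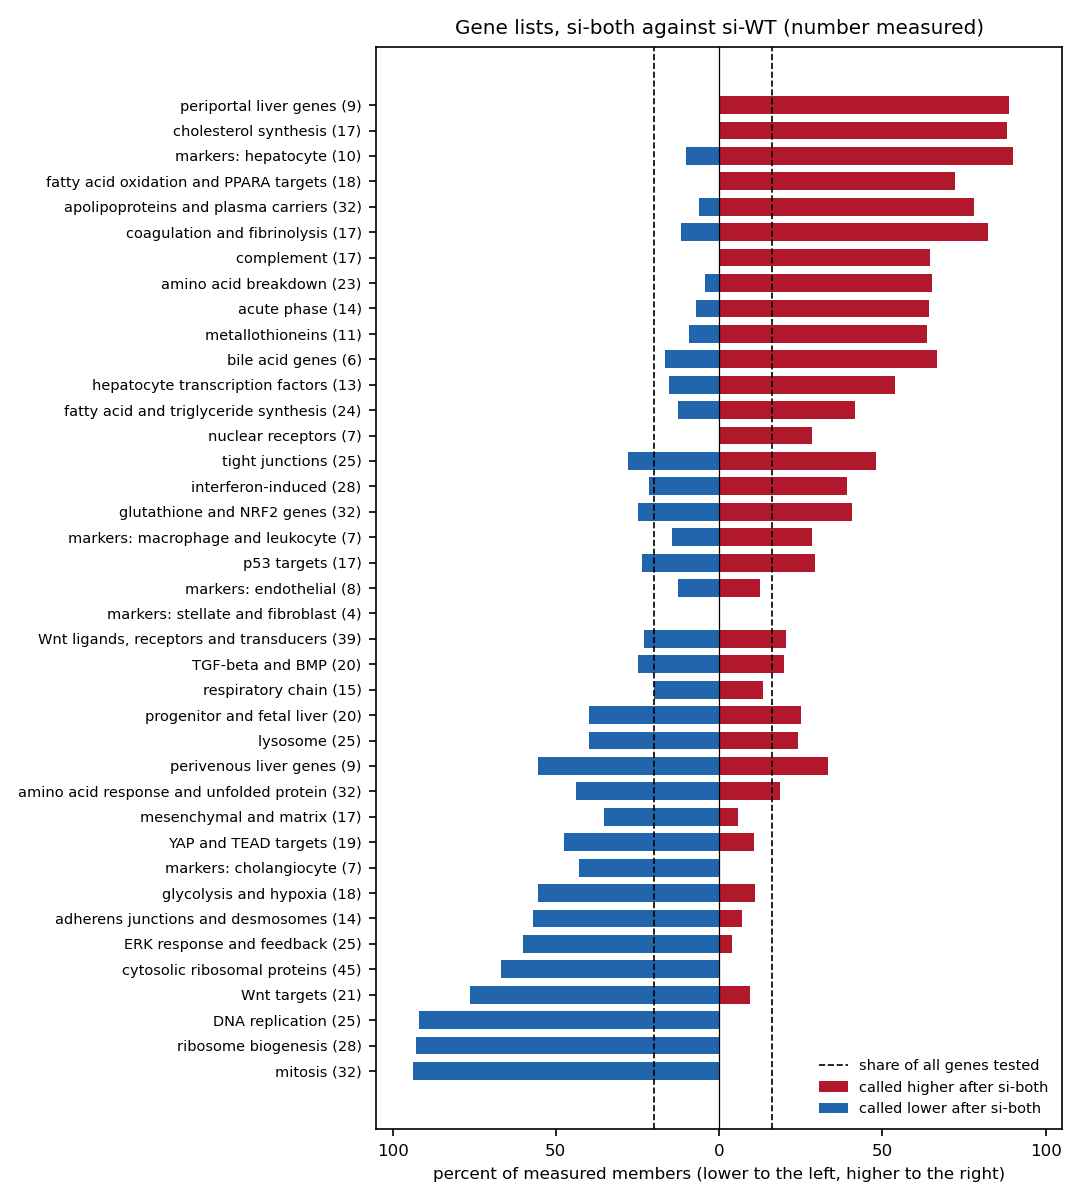
Percent of the measured members of each gene list that were called higher (right) or lower (left) after si-both against si-WT, with the number measured in brackets. Dashed lines mark the shares over all genes, 16.1% higher and 20.1% lower, and mitosis, ribosome biogenesis and DNA replication lie at the lower end with 0 members higher.

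The hepatocyte markers were all detected far above the floor. Of 12 listed 10 were measured, 9 rose and 1 (APOA2) fell, with a median log2 change of 0.58. ALB, the albumin gene, had levels of 13.51, 13.56 and 13.51 after si-both, against 13.02, 13.07 and 13.03 after si-WT, and rose 1.4-fold (0.49 ± 0.06, limma adjusted p = 3.76e-05). TTR and APOC3 rose 2.11-fold and 2.7-fold, and AMBP, APOA1, ASGR1, ASGR2 and APOB rose by 0.67, 0.77, 0.42, 0.34 and 0.27 on the log2 scale. APOB lost its call when the arrays were quantile normalized again (adjusted p = 0.295), and the change of ALB was then 0.29. The summed linear intensity of the list was 56036 to 58147 after si-both, against 39916 to 41668 after si-WT. Among 7 measured cholangiocyte markers 0 rose and SPP1, SOX9 and KRT19 fell, with summed intensities of 3596 to 4627 after si-both, against 11314 to 11620 after si-WT. SPP1 was the brightest of these cholangiocyte markers and made up much of the sums. KRT7, AQP1 and SCTR, other markers of these cells, lay near the array floor in both groups. None of the 4 measured stellate and fibroblast markers was called (sums of 61.2 to 71.0 after si-both, against 55.4 to 62.1 after si-WT). Of 8 endothelial markers VWF rose and LYVE1 fell, each near the array floor (sums of 161. to 192. after si-both, against 182. to 189. after si-WT). Of 7 macrophage and leukocyte markers CD68 and CD163 rose and LYZ fell (sums of 4238 to 5275 after si-both, against 7571 to 7793 after si-WT). LYZ averaged 11.60 after si-both and 12.68 after si-WT and made up most of these sums. The median log2 change of these 7 markers was 0.20. CD163 and the endothelial and stellate markers lay at the array floor in both groups. The part of other cell types in the results was not tested.

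The design also allows the loss of the truncated form to be measured with the full-length form left alone, as si-mut against siCtrl on the 6 other arrays. Both contrasts draw their errors from one fit to all 12 arrays. For si-mut against siCtrl 3810 genes were called (25.6%), 1783 higher (12%) and 2027 lower (13.6%). Of the genes called for si-both against si-WT, 2488 were called in the same direction for si-mut against siCtrl. They were 46.2% of the first set of calls and 65.3% of the second. A further 208 were called in opposite directions. Across all 14884 genes the log2 changes of the contrasts correlated at a Pearson r of 0.650, a description over genes, which are not independent replicates. Subtracting the second contrast from the first gives what is called the departure from additivity here, and it is positive where the si-both against si-WT change was the more positive. It was called for 2439 genes (16.4%), 1131 positive (7.6%) and 1308 negative (8.79%). All 208 genes with opposite calls were among them, which follows from the arithmetic, because opposite changes add in the difference. Of the 2488 genes with the same direction 564 had a called departure, and in 482 of these the change was larger for si-both against si-WT.

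**Figure D4:**
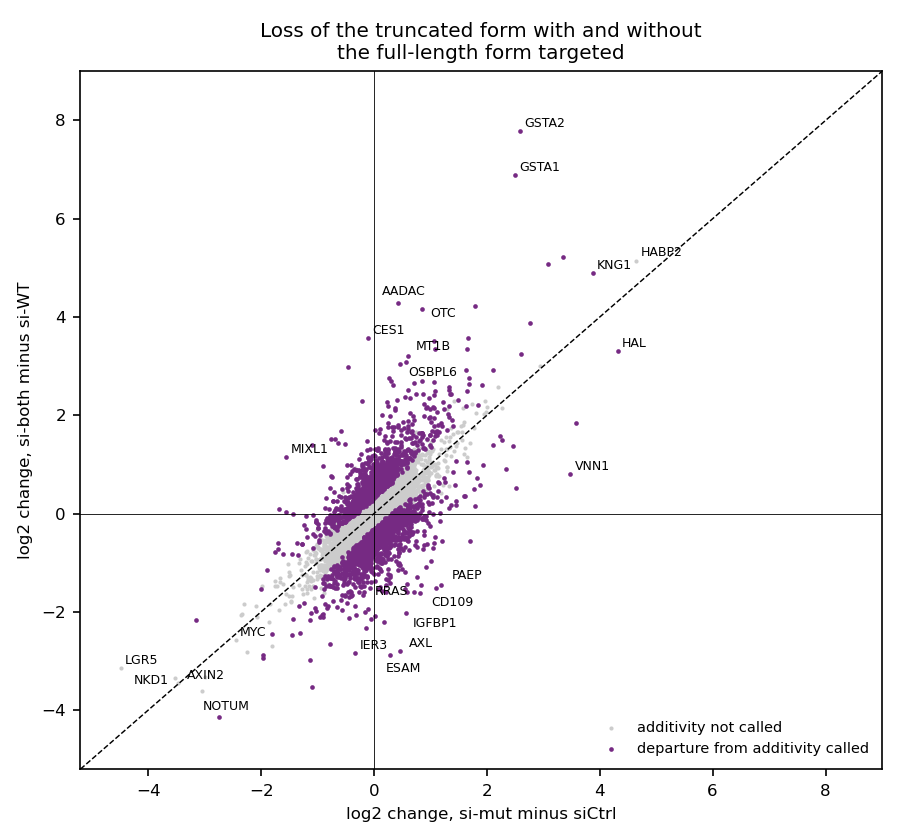
Log2 change of si-both minus si-WT (upward) against that of si-mut minus siCtrl (across) for 14884 genes, with the line of equal changes dashed and the 2439 genes with a called departure in purple. AXIN2, NKD1, NOTUM and MYC lie close to the line, and GSTA2, GSTA1, AADAC and CES1 lie well above it.

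Most Wnt targets did not have a called departure, and AXIN2, MYC, NOTUM and NKD1 are given first. AXIN2 changed by -3.45 ± 0.26 for si-both against si-WT and -3.47 ± 0.26 for si-mut against siCtrl, a departure of 0.02 ± 0.37. For MYC the changes were -2.58 ± 0.11 and -2.44 ± 0.11, for NOTUM -3.61 ± 0.23 and -3.04 ± 0.23, and for NKD1 -3.34 ± 0.32 and -3.52 ± 0.32, with departures that were not called (-0.14 ± 0.16, -0.57 ± 0.33 and 0.18 ± 0.45). LGR5 had the widest error of the Wnt targets, with a departure of 1.34 ± 0.61 (limma adjusted p = 0.173). Of the 21 targets 5 had a called departure, 3 positive and 2 negative. Over all genes 16.4% had one, 7.6% positive and 8.79% negative, so called departures were not rarer among the targets. A departure that was not called does not show that the changes were equal. The positive ones were DKK4 (2.44 ± 0.17), APCDD1 (0.76 ± 0.18) and RNF43 (0.46 ± 0.10), and the negative ones DKK1 (-1.12 ± 0.36) and SOX9 (-0.53 ± 0.13). RNF43 and APCDD1 thus fell by less for si-both against si-WT than for si-mut against siCtrl, SOX9 and DKK1 by more, and DKK4 rose by more. The departure of DKK1 lost its call when any single array other than the first of si-both was left out (limma adjusted p = 0.047 with all arrays).

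The largest positive departures of the named genes were those of GSTA2, GSTA1, AADAC and CES1. For GSTA2 the group means were 12.71 ± 0.07 after si-both and 4.93 ± 0.67 after si-WT, and 10.10 ± 0.19 after si-mut and 7.51 ± 0.06 after siCtrl. Its change for si-mut against siCtrl was 2.59 ± 0.23 and the departure 5.19 ± 0.32 (limma adjusted p = 7.18e-07). GSTA1 had means of 12.81 after si-both and 5.93 after si-WT, and 10.70 after si-mut and 8.19 after siCtrl, a departure of 4.38 ± 0.24 (limma adjusted p = 2.53e-07). In both genes si-both gave the highest and si-WT the lowest level of the 4 groups. CES1 averaged 10.54 after si-both and 6.97 after si-WT, and 8.50 after si-mut and 8.60 after siCtrl. Its change was called for si-both against si-WT and was -0.10 ± 0.15 for si-mut against siCtrl (limma adjusted p = 0.71), with a departure of 3.67 ± 0.21 (limma adjusted p = 4e-07). AADAC averaged 8.19 after si-both and 3.91 after si-WT, and 5.41 after si-mut and 4.98 after siCtrl, a departure of 3.85 ± 0.19 (limma adjusted p = 1.7e-07). In all groups but si-both AADAC lay close to the array floor, which compresses changes among those groups. OTC averaged 8.15 after si-both and 3.98 after si-WT, and 6.27 after si-mut and 5.41 after siCtrl, a departure of 3.31 ± 0.27 (limma adjusted p = 5.03e-06). For these 3 as well si-WT gave the lowest level. OSBPL6, an oxysterol-binding relative, and MT1B averaged close to the array floor in all groups but si-both, and their departures were 2.60 ± 0.19 and 2.60 ± 0.49 (limma adjusted p = 2.94e-06 and 0.0024).

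The receptor gene AXL and the adhesion gene ESAM had the largest negative departures of the named genes. AXL averaged 5.82 ± 0.10 after si-both and 8.61 ± 0.30 after si-WT, and 7.21 ± 0.22 after si-mut and 6.74 ± 0.14 after siCtrl. It rose by 0.47 ± 0.14 for si-mut against siCtrl and fell for si-both against si-WT, a departure of -3.26 ± 0.20 (limma adjusted p = 7.18e-07). ESAM averaged 5.81 after si-both and 8.69 after si-WT, and 7.35 after si-mut and 7.06 after siCtrl, a departure of -3.17 ± 0.26 (limma adjusted p = 5.03e-06). In AXL and ESAM si-WT gave the highest and si-both the lowest level. RRAS, a small GTPase, and CD109, a surface protein that restrains TGF-β signalling, rose in the si-mut contrast (by 0.82 and 1.09) and fell in the other (by 1.61 and 1.51). Their departures were -2.43 ± 0.20 and -2.60 ± 0.19 (limma adjusted p = 5.03e-06 and 3.13e-06). With the mean of its probe sets the change of CD109 for si-both against si-WT was -0.78, and its dimmer probe set, at the array floor, changed by -0.05. PAEP, the secreted protein glycodelin, followed the same pattern at low levels, with a departure of -2.65 ± 0.35 (limma adjusted p = 0.000215). IGFBP1 averaged 7.96 after si-both and 9.97 after si-WT, and 11.26 after si-mut and 10.69 after siCtrl, a departure of -2.58 ± 0.34 (limma adjusted p = 0.000236).

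The contrasts also differed for MIXL1 and VNN1. MIXL1, a homeobox factor of early development, averaged 8.55 after si-both and 7.40 after si-WT, and 8.37 after si-mut and 9.92 after siCtrl. It rose by 1.15 ± 0.17 for si-both against si-WT and fell for si-mut against siCtrl (-1.55 ± 0.17), a departure of 2.70 ± 0.23 (limma adjusted p = 7.96e-06). VNN1, a pantetheinase regulated by PPARA, averaged 4.76 after si-both and 3.95 after si-WT, and 7.66 after si-mut and 4.19 after siCtrl. It rose by 0.80 ± 0.21 for si-both against si-WT and by 3.48 ± 0.21 for si-mut against siCtrl, a departure of -2.67 ± 0.30 (limma adjusted p = 6.48e-05). VNN1 was above the floor after si-mut only. HAL was a further liver gene that rose by less for si-both against si-WT than for si-mut against siCtrl (3.30 ± 0.19 and 4.32 ± 0.19, departure -1.02 ± 0.27, limma adjusted p = 0.0208). The departure of HAL lost its call under 6 of 21 alternatives, with an adjusted p of up to 0.085.

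**Figure D5:**
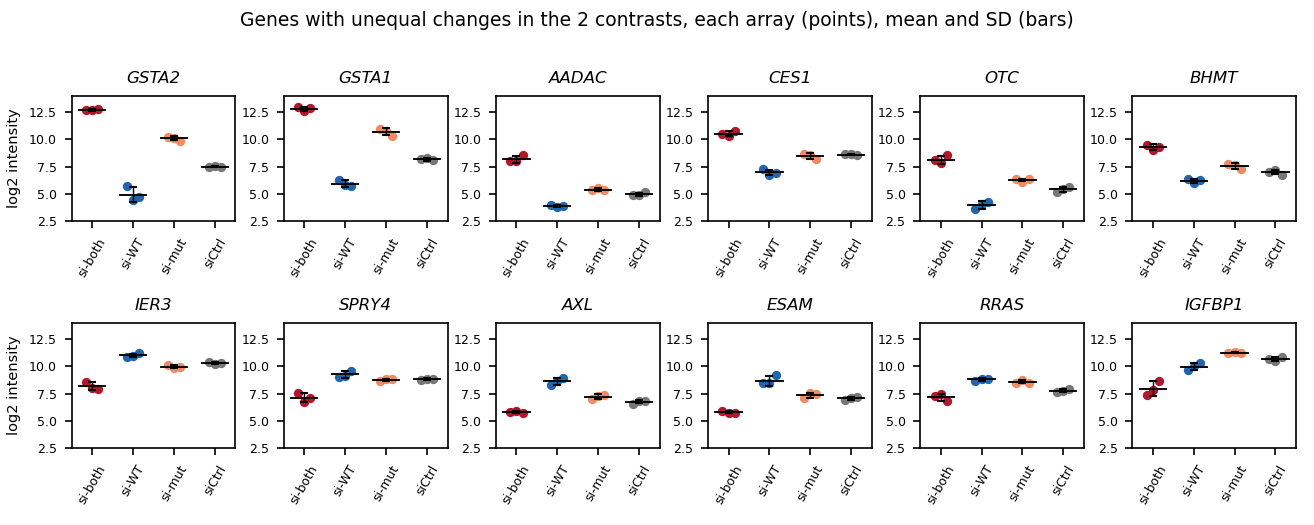
Log2 intensity of 12 genes with called departures in each array (points), with group means and SDs (bars), for si-both, si-WT, si-mut and siCtrl. In the upper row si-both is highest and si-WT lowest, and in the lower row si-both is lowest for all 6 genes.

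Gene groups differed in how evenly they moved in the contrasts. Cholesterol synthesis genes had median changes of 0.65 for si-both against si-WT and 0.62 for si-mut against siCtrl, with 1 positive and 1 negative departure among 17. Ribosome biogenesis genes had medians of -0.91 for si-both against si-WT and -0.82 for si-mut against siCtrl, and 2 of 28 departures were called, both negative. These shares are at or below the 7.6% positive and 8.79% negative of all genes. Mitosis genes fell in 30 of 32 cases in either contrast, with medians of -0.93 for si-both against si-WT and -0.53 for si-mut against siCtrl, and 13 had a called negative departure. PRC1 and HMMR were among them (-1.17 ± 0.14 and -0.85 ± 0.12, limma adjusted p = 8.62e-05 and 0.000347). DNA replication genes had medians of -0.78 for si-both against si-WT and -0.62 for si-mut against siCtrl. Departures were called negative for 3 and positive for 1 of 25, near the 8.79% negative and 7.6% positive of all genes. MCM3 was one of the negative, at -1.08 ± 0.20 (limma adjusted p = 0.00227).

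ERK response genes had a called negative departure in 13 of 25 cases and a positive one in 0. For this and the lists below, the shares over all genes were 8.79% negative and 7.6% positive. The medians of the ERK response genes were -0.72 for si-both against si-WT and -0.05 for si-mut against siCtrl, where 7 members rose and 7 fell. Over all genes 12% rose and 13.6% fell for si-mut against siCtrl. IER3 averaged 8.16 after si-both and 10.995 after si-WT, and 9.97 after si-mut and 10.30 after siCtrl, a departure of -2.51 ± 0.21 (limma adjusted p = 5.74e-06). SPRY4 averaged 7.12 after si-both and 9.26 after si-WT, and 8.75 after si-mut and 8.80 after siCtrl, a departure of -2.09 ± 0.26 (limma adjusted p = 0.000124). Neither gene was called for si-mut against siCtrl (-0.33 ± 0.15 and -0.05 ± 0.18). Of 19 YAP and TEAD targets 6 had a negative departure and 1 a positive one. Coagulation genes rose in both contrasts, in 14 of 17 cases for si-both against si-WT and 16 for si-mut against siCtrl, with medians of 1.10 for si-both against si-WT and 0.69 for si-mut against siCtrl. Of these genes 8 had a positive and 2 a negative departure, F11 among the positive (1.84 ± 0.14, limma adjusted p = 3.31e-06). Amino acid breakdown and fatty acid oxidation genes also had 8 positive departures each, of 23 and 18, with 0 and 1 negative. BHMT, PPARA and CXCL8 were positive, at 2.51 ± 0.22, 1.10 ± 0.14 and 2.40 ± 0.32 (limma adjusted p = 7.57e-06, 0.000193 and 0.000242). Apolipoproteins and carriers were divided, with 9 positive and 6 negative departures of 32. TTR was one of the negative, rising by 1.08 for si-both against si-WT and 1.45 for si-mut against siCtrl (departure -0.37 ± 0.10, limma adjusted p = 0.0186). Its departure lost its call in 1 of 21 alternatives.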

How the data were processed

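RNA from 12 HepG2 samples was hybridised to Affymetrix arrays (1 colour, biotin label), per the labels. The deposited values are log2 intensities. The submitters' processing notes name RMA and Affymetrix Expression Console 1.1, and the log2 scale was read from the range of the values. RMA equalises the arrays' distributions and so hides any shift that most genes share. Of 53617 probe sets 16098 had 1 gene symbol in a platform annotation table, 0 had more than 1, and the 37519 that the table does not list were left unnamed. For 779 genes with several probe sets the one with the highest mean was used. No dim genes were left out.

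Group means of all 12 arrays were fitted in limma 3.58.1 (R 4.3.3; lmFit, eBayes; 8 residual degrees of freedom, median 13.3 with the prior). P-values are two-sided, adjusted by Benjamini-Hochberg over 14884 genes per contrast. The members and gene lists were chosen with earlier results of these data known. The lists for proteasome and replication-dependent histones had 0 measured members. Named genes are the 15 highest and 15 lowest called changes whose arrays did not overlap, all measured Wnt targets, up to 3 called members of each other list in its main direction and 2 in the other, the 8 highest and 8 lowest departures among genes called in both tests, and the hepatocyte markers. Symbols of unnamed reading frames, antisense, small or uncharacterised RNAs were left out of the first and the departure rules. The steps were tested on simulated data. The precision is limited by 3 arrays per group.

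Replicate numbers are shared across groups in the titles. Same-numbered si-both and si-WT arrays deviated together (r = 0.115, 0.155 and 0.134), so by the rule used the numbers pair the arrays, from the data and not the labels. Each other pair was below 0, which adds no support, because deviations within a group sum to 0. The main fit did not use the pairing, and a fit with the replicate number as a block is among the alternatives. Promoters came from RefSeq (GRCh38.p14), matched by Entrez gene identifier for 10749 genes. Figures used matplotlib 3.10.9 in Python 3.11.15.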

Additional observations from a re-analysis of the deposited data

Results flagged for a closer look

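In 107 of the named genes the change for si-both against si-WT differed from the change for si-mut against siCtrl by the limma test of the difference itself, with n = 3 arrays in each of 4 groups and adjusted p from 1.7e-07 to 0.0481. The values are the first change less the second, on the log2 scale. The same test was passed by 16.4% of all genes, and 16 of the named genes were chosen for the size of this difference. Most of the others were chosen among genes called for si-both against si-WT, and that change is part of the difference. Of all genes called for si-both against si-WT, 36.7% passed (1976 of 5383), so the 107 are not a fair sample of all genes.

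Positive differences among the highest changes and departures were those of GSTA2 (5.19), GSTA1 (4.38), AADAC (3.85), CES1 (3.67), OTC (3.31), MIXL1 (2.70), OSBPL6 (2.60), HULC (2.28), SNAI2 (1.99) and ACSM2B (1.91). Genes of secreted plasma proteins and acute phase genes with positive values were C6 (2.44), CXCL8 (2.40), FETUB (1.87), F11 (1.84), PON1 (1.69), LEAP2 (1.29), KNG1 (1.01), APOC3 (0.75), VTN (0.65) and FGB (0.57). Metabolic genes and their regulators were MT1B (2.60), BHMT (2.51), AGXT (1.56), DPYD (1.12), PPARA (1.10), GNMT (1.09), OAT (0.99), MT1F (0.97), MLXIPL (0.88), BAAT (0.80), RGN (0.65), CIDEB (0.58), CREB3L3 (0.56), KLB (0.54), ACSL1 (0.50), GATA6 (0.46) and COX5A (0.43). Wnt genes were DKK4 (2.44), APCDD1 (0.76), RNF43 (0.46) and BTRC (0.39). From the other lists came CTSS (1.61), VLDLR (1.47), CHST15 (0.99), SESN1 (0.98), XAF1 (0.84), SESN2 (0.74), TJP3 (0.71), WWC1 (0.69), SMAD4 (0.64), PEG10 (0.58), USP18 (0.45), JUP (0.40) and TFE3 (0.37).

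Negative differences among the lowest changes and departures were those of AXL (-3.26), ESAM (-3.17), VNN1 (-2.67), PAEP (-2.65), CD109 (-2.60), IGFBP1 (-2.58), IER3 (-2.51), RRAS (-2.43), FRMD5 (-2.42), TMC7 (-1.88), KRT23 (-1.86), CEMIP (-1.39), MATN3 (-0.97) and ZNF114 (-0.91). Wnt genes were DKK1 (-1.12), FZD2 (-0.63) and SOX9 (-0.53). Genes of division, replication and ribosomes were PRC1 (-1.17), MCM3 (-1.08), HMMR (-0.85), BUB1 (-0.68), PCNA (-0.67), BOP1 (-0.44) and RPL12 (-0.32). Liver genes with negative values were HAL (-1.02), TFPI (-0.98), SREBF1 (-0.93), FGFR4 (-0.69), LPIN2 (-0.62), PROC (-0.54), MT1L (-0.52), TALDO1 (-0.51), TTR (-0.37) and APOA2 (-0.34). From the remaining lists came SPRY4 (-2.09), IFITM2 (-1.76), GDF15 (-1.55), IFITM1 (-1.35), CRIM1 (-1.18), HK2 (-1.15), LYVE1 (-0.97), SPP1 (-0.96), VCL (-0.77), SOX4 (-0.76), PGAM1 (-0.71), LYZ (-0.69), COX7A2 (-0.69), BNIP3L (-0.67), KRT19 (-0.65), PKP4 (-0.59), CARS1 (-0.52), STC2 (-0.41) and CTSC (-0.38).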

How the results depend on the processing

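The number of called genes lay between 4820 (without si-WT replicate 2) and 5623 (replicate number as a block) over all alternatives, against 5383, and between 4820 and 5299 when 1 array was left out. Changes of at least 2-fold numbered 711 to 865 and called departures from additivity 1912 to 2704. Further alternatives were renewed quantile normalization, median centring, leaving out genes under the 40th percentile, mean probe sets, trended and robust priors, array weights, and a fit to only the groups compared. The first si-both and si-mut arrays, which stood apart on Wnt targets, were left out together in an alternative chosen after seeing the data (5225 called). None of these counts moved by over 1.5 times, nor did the count in the main direction of any list with at least 5 members called that way; other list counts were not recomputed, and 0 named genes reversed. Of 178 called named genes 167 kept their call under every alternative and 11 lost it under at least 1: APOB, PROX1, ARHGEF17, VWF, ASCL2, DUSP1, NKD2, PROC, SOCS3, UQCRH and LYVE1. The replicate block ended only the call of ARHGEF17 among them (adjusted p = 0.0552). Of 107 named genes with a called departure 87 kept it under every alternative. The 20 that lost it under at least 1 were ACSL1, APOA2, BOP1, BTRC, CIDEB, COX5A, CTSC, DKK1, FZD2, HAL, JUP, LPIN2, LYVE1, MT1L, RPL12, STC2, TALDO1, TFE3, TTR and USP18. The replicate block ended those of BOP1 and CIDEB. With the mean of probe sets the departures of CD109, CES1 and IER3 were -1.50, 2.92 and -1.85. The cause was not tested. Signal near the array floor limits the size of changes for dim genes.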
